A study of Mus musculus with 6 samples.

Results

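Among the long myoblast territories of ubiquitylated histone H2B (H2Bub) in C2C12 cells, 2418 stretches of 10 to 50 kb still overlapped a peak in myotubes. They were found by joining the peaks of the myoblast (MB) list across gaps of up to 3 kb, keeping stretches from 10 kb to under 50 kb, and requiring at least 1 bp of overlap with the myotube (MT) list. These 2418 were taken from 19877 joined stretches of any length and from 4672 of 10 to 50 kb, of which 2254 had no MT peak. The members were thus chosen by the peaks listed for both groups, so the presence of MB peaks and of an MT peak is given by the choice and is no finding.

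H2Bub is a single ubiquitin placed on the C-terminal tail of histone H2B by the RNF20 and RNF40 ligase and removed by deubiquitylases such as USP22. It is deposited behind transcribing RNA polymerase II, so in mammalian cells it spreads over the bodies of active genes, and a long run of peaks is the usual shape of the mark. C2C12 is a mouse myoblast line whose cells leave the cell cycle and fuse into multinucleate myotubes when serum is reduced.

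MT libraries came from cells grown to confluence and then kept for 96 h, or 4 days, in 2% horse serum, with fresh medium at day 2. MB libraries came from cells growing in 10% fetal bovine serum at about 40% confluency. Each group had 3 libraries, all made from chromatin digested with micrococcal nuclease and precipitated with the same clone of H2Bub antibody. The labels give the cell type as C2C12 and the source names as C1C12. The labels give a different, consecutive antibody lot number for each library, so lot and library cannot be told apart. In a bulk culture, fewer cells carrying the mark and less mark per cell cannot be told apart.

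The MT libraries held 8767810 to 14480532 reads and the MB libraries 9293327 to 15903500. MT replicate 2 stood apart from the other MT libraries and its own value is given beside the main levels. It was the lowest MT library in 2200 of the 2418 stretches (91.0%), so its low value in named stretches is not particular to them. Over the 2418 stretches its density correlated with MT replicates 1 and 3 at a Pearson r of 0.306 and 0.326 on the log2 scale, whereas replicates 1 and 3 had 0.844. With the MB libraries, MT replicate 2 had r between -0.056 and -0.0422, and the other MT libraries 0.311 to 0.413. The MB libraries correlated with each other at 0.828 to 0.969. These values describe stretches that share libraries and depth, and they carry no test. All coordinates are mm9, with the first base counted as 1. No gene annotation or sequence of that build was used here, so stretches are named by position.

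The 2418 stretches covered 60.3 Mb and varied widely in shape. The median length was 23.0 kb (quartiles 15.9 and 32.6 kb), and the median stretch held 23 MB peaks (5 to 59) that filled 59.0% of its length. The 2254 stretches without an MT peak were shorter, with a median of 15.9 kb, and MB peaks filled 47.2% of their length. The share of stretches with an MT peak was higher in each longer class, at 33.8% of the 1547 stretches of 10 to 15 kb, 46.1% of 937 of 15 to 20 kb, 61.6% of 1181 of 20 to 30 kb, 69.7% of 659 of 30 to 40 kb and 79.6% of 348 of 40 to 50 kb. Per kb of all stretches in a class, with or without an MT peak, there were 0.0466, 0.0546, 0.0702, 0.0709 and 0.0802 MT peaks in the same order.

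Stretches on either side of the length limits had fold changes in the same range. The 3 stretches just above 10 kb, at chromosome 6, 94164225 to 94174229, chromosome X, 156358985 to 156368989, and chromosome 1, 184055417 to 184065428, had log2 fold changes (MT minus MB) of -0.96, -0.68 and -2.07. The 3 just under that limit, also with an MT peak, had -2.48, -0.81 and -1.23. Near 50 kb, the 3 longest stretches inside had -1.73, -1.85 and -2.51, and the 3 shortest outside had -2.27, -1.87 and -1.88. The 3 stretches under 10 kb began at 99939422 on chromosome 10, 140940973 on chromosome 1 and 66922505 on chromosome 6. Of the 2418 stretches, 3 shared fewer than 50 bp with MT peaks. Of the 2254 without an MT peak, 16 had an MT peak within 500 bp of an end.

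Within these stretches, most MT peaks were small islands inside much larger MB territories. The 2418 stretches held 6658 MT peaks, 25.9% of the 25743 on these chromosomes. These MT peaks had a median width of 281 bp (quartiles 229 and 358 bp), beside 276 bp over all MT peaks. They filled a median of 2.25% of a stretch. There were 1125 stretches with 1 MT peak, 511 with 2, 518 with 3 to 5 and 264 with 6 or more, and those 264 held 39.3% of all MT peaks in the set. Of 59184 MB peaks in the stretches, 5430 (9.17%) overlapped an MT peak.

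MT peaks lay along the whole length of the stretches. With the length divided into 10 equal bins from the lower coordinate, the shares of peak centres were 10.98%, 10.3%, 10.5%, 9.88%, 9.39%, 9.54%, 9.19%, 9.60%, 10.9% and 9.73%. The outer 10% at either end together held 20.7% of centres (Wilson 95% interval 19.8 to 21.7), beside 20% of the length. The interval treats peaks as independent, although 264 stretches held 39.3% of them, so it may be too narrow. Centres within 2 kb of an end were 17.1% of all, and 2 kb at either end made up 16.8% of the length, averaged over peaks. The median centre was 5780 bp from the nearer end. In stretches with 1 MT peak the first bin had 148 of 1125 centres (13.2%) and bin 5 had 90, the highest and lowest of the 10. These are counts from 1 list per group and have no replicate error, and the ends were not oriented by gene direction.

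**Figure D1:**
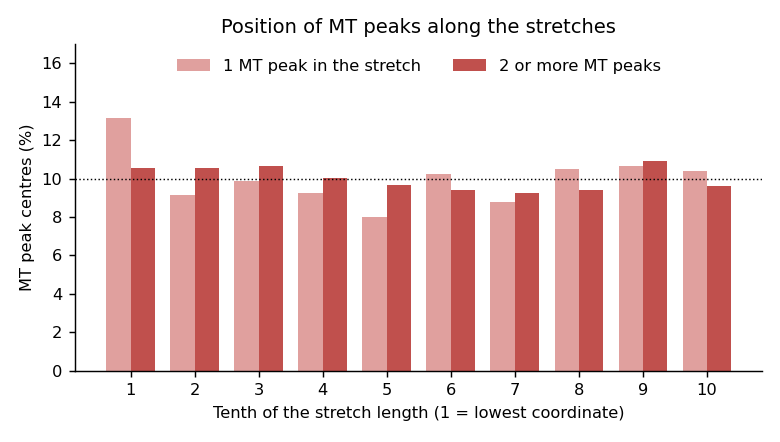
Share of MT peak centres (y axis, percent) in 10 equal bins of the stretch length (x axis, from the lower to the higher coordinate), for the 1125 stretches with 1 MT peak and the 1293 with 2 or more; the dotted line marks an even 10%. With 1 peak, bin 1 is the highest at 13.2%; with 2 or more, shares lie between 9.27% and 10.9%.

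Within a stretch, MT peaks sat on MB peaks and often close to each other. Of the 6658 MT peaks, 6252 (93.9%) touched an MB peak (1 bp or more shared), and 406 lay in gaps between MB peaks. By centre alone, 5941 (89.2%) lay in an MB peak, and MB peaks filled 58.7% of the combined length. In 124 stretches every MT peak lay in a gap. The MB peaks that overlapped an MT peak had a median width of 888 bp, against 386 bp for the MB peaks that did not, and a wider peak has more room for an overlap. Neighbouring MT peaks of a stretch were separated by a median of 1616 bp (quartiles 519 and 4618 bp).

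The stretch with the most MT peaks, 32, was at chromosome 11, 75547110 to 75581399 (34.3 kb). Its peaks were 171 to 942 bp wide and their centres ran from 572.5 bp to 29239.5 bp from the lower end. Read counts there, per 1000000 reads (RPM), were 58.1, 18.5 and 55.02 in MT replicates 1 to 3, against 305, 331 and 249 in the MB libraries. All MT values were below all MB values, and MT replicate 2 was the lowest. Next came chromosome 7, 74478549 to 74516463, with 30 MT peaks, then chromosome 2, 49308497 to 49330812, and chromosome 16, 4124824 to 4164510, with 28 each, and chromosome 4, 142701969 to 142751313, with 27. In each of these 5 stretches MT replicate 2 had the lowest value, such as 12.1 RPM at the chromosome 2 stretch, where the other MT libraries had 76.8 and 60.9 RPM.

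Although each stretch kept an MT peak, its level was lower in MT. The stretches held 4.61%, 3.24% and 4.52% of the reads of MT replicates 1 to 3, against 15.1%, 16.9% and 13.8% of MB replicates 1 to 3. The means were 4.12% ± 0.767 in MT and 15.3% ± 1.54 in MB (SD, n = 3 each), a difference of -11.2 percentage points, and the groups did not overlap. Per length, the density was 0.765, 0.537 and 0.750 RPM per kb in the MT libraries, against 2.51, 2.80 and 2.29 RPM per kb in the MB libraries. In RPM, peak-free sequence moved the other way, with 0.405 ± 0.00988 RPM per kb in MT and 0.260 ± 0.0201 RPM per kb in MB (SD, n = 3 each). RPM divides by total reads, so a smaller share of reads in peaks by itself raises the share elsewhere. An absolute gain in peak-free sequence cannot be read from these values. Relative to peak-free sequence, the stretches were 1.92, 1.29 and 1.88 times as dense in MT and 9.51, 11.7 and 8.24 times in MB. These levels come from the libraries that chose the stretches, so no test is given.

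**Figure D2:**
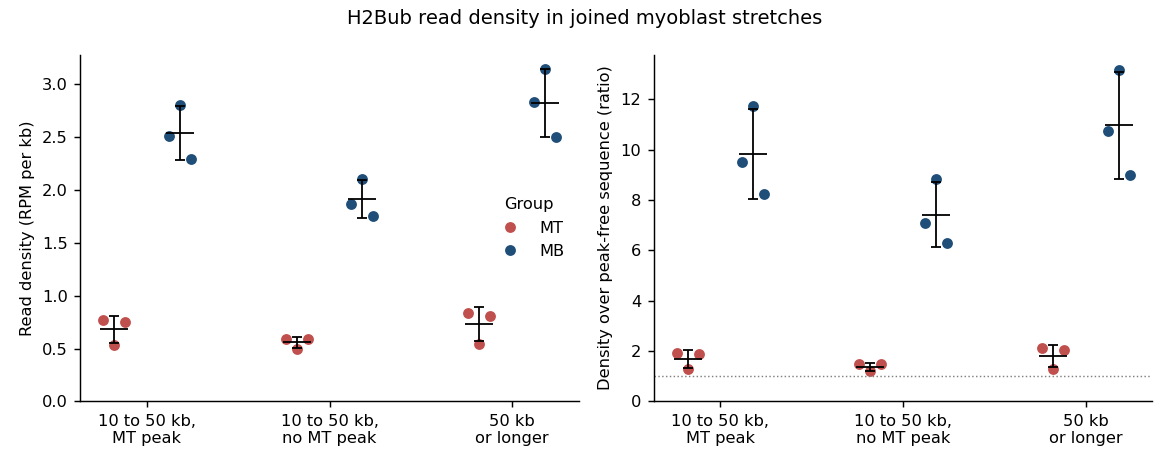
Read density (left, RPM per kb) and the same density over that of peak-free sequence (right, ratio, dotted line at 1) in 3 classes of joined MB stretches; points are libraries, bars the mean and SD of 3. In the 10 to 50 kb stretches with an MT peak, MT libraries lie between 0.537 and 0.765 RPM per kb and MB libraries between 2.29 and 2.80 RPM per kb.

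Taken singly, almost every stretch was lower in MT. In the fit over all joined stretches, 2414 of the 2418 were called lower and 0 higher (limma voom, adjusted p under 0.05), beside 95.8% called lower and 0% higher among all 13218 stretches tested. All 2418 had enough reads to be tested, and the MB peaks that define them fix the direction in part, so this count supports nothing. The median log2 fold change was -1.78 (5th to 95th percentile -2.62 to -0.90), -1.63 in stretches of the same length range without an MT peak and -1.39 over all stretches tested. With background scaling these medians were -2.26, -2.11 and -1.86. Without MT replicate 2 they were -1.62, -1.55 and -1.31, so the first and second lay closer together. All 3 MT libraries were below all 3 MB libraries in 2405 of the 2418 (99.5%), and in 94.1% of all stretches tested.

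The stretches with the lowest fold changes were chosen on MT minus MB, so their high MB density comes with the choice. Across the 2418, MB density and log2 fold change had a Pearson r of -0.898, but both use the MB libraries. The lowest fold change was at chromosome 11, 59023552 to 59041293 (17.7 kb, 12 MT peaks), with 25.1, 9.20 and 22.5 RPM in MT and 145, 170 and 145 RPM in MB (log2 fold change -3.14, SE 0.29). The stretch at chromosome 2, 91367480 to 91407042, with 1 MT peak, had 23.7, 19.6 and 21.1 RPM in MT and 201, 207 and 151 RPM in MB (-3.12, SE 0.23). At chromosome 8, 87197209 to 87210588, MT libraries had 13.4, 7.25 and 12.1 RPM and MB libraries 86.8, 97.4 and 89.8 RPM (-3.10). In these 3 stretches the groups were far apart and MT replicate 2 was the lowest. At chromosome 6, 117858357 to 117873698, MT libraries had 15.1, 6.92 and 13.8 RPM and MB libraries 100.4, 105 and 86.7 RPM (-3.10). The fifth, at chromosome 3, 138191025 to 138226392, had 26.8, 20.1 and 25.1 RPM in MT and 206, 227 and 171 RPM in MB (-3.08). In these 5 stretches MB density was 4.71 to 8.64 RPM per kb, against a median of 2.06 to 2.45 RPM per kb over all 2418 in the 3 MB libraries. MT density in the 5 was 0.543 to 1.07 RPM per kb.

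The stretches nearest to an equal level were likewise chosen on the fold change, and their low MB density comes with that choice. At chromosome X, 166391723 to 166409591 (17.9 kb, 11 MT peaks), MT libraries had 35.2, 13.3 and 29.9 RPM and MB libraries 32.0, 32.2 and 23.9 RPM, so the groups overlapped (log2 fold change -0.29, SE 0.25). Without MT replicate 2, the lowest of the 6 there, the fold change turned to 0.16 and was not called. At chromosome 15, 73418531 to 73432927, MT libraries had 12.3, 11.6 and 15.3 RPM and MB libraries 12.8, 18.2 and 23.1 RPM (-0.42, SE 0.21), again overlapping. Chromosome 10, 18720912 to 18733419, chromosome 15, 80717211 to 80727589, and chromosome 17, 30585581 to 30607928, had -0.43 each, and there all MT values were below all MB values, but each of these 3 calls was lost with some single libraries left out. The 4 stretches not called were the first pair here and, chosen after their values were seen, chromosome 1, 91422706 to 91444917 (-0.46), and chromosome 19, 53757198 to 53768195 (-0.49). Without MT replicate 2 these were -0.02 and -0.09, and with other single libraries left out they reached -0.67 and -0.75 and were called. With background scaling none of the 2418 was left uncalled.

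Stretches with more MT peaks were denser in both groups and, with all 6 libraries, had lower median fold changes. Stretches with 1 MT peak had 0.616 ± 0.0801 RPM per kb in MT and 2.20 ± 0.215 in MB (SD, n = 3 each), with a median log2 fold change of -1.69. With 2 MT peaks the densities were 0.658 ± 0.108 in MT and 2.38 ± 0.228 in MB (median -1.73), and with 3 to 5 they were 0.717 ± 0.139 in MT and 2.72 ± 0.268 in MB (median -1.86). With 6 or more they were 0.873 ± 0.277 in MT and 3.45 ± 0.415 in MB (median -2.02). The stretches with 6 or more peaks had a median length of 32.0 kb, against 20.1 kb with 1 peak. The MT libraries differed in this gradient. With 6 or more peaks and with 1 peak, density was 1.06 and 0.666 RPM per kb in MT replicate 1. It was 1.01 and 0.658 in replicate 3, and 0.554 and 0.523 in replicate 2. In MT replicate 2 density thus rose little with the number of peaks, while MB density rose. The median fold changes by number of peaks were not computed without MT replicate 2, so its part in their fall was not tested. The number of peaks counts MT signal directly, so these values are a description. Across the 2418 stretches, MT and MB density had a Pearson r of 0.344 (Spearman 0.293), and 0.555 (0.528) when each was taken over its local peak-free sequence.

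**Figure D3:**
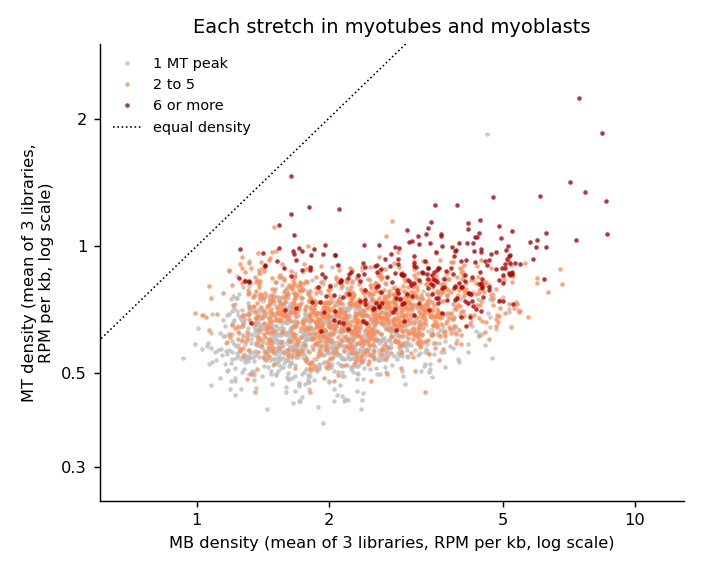
Each point is 1 of the 2418 stretches, with MB density on the x axis and MT density on the y axis (means of 3 libraries, RPM per kb, log scales), coloured by the number of MT peaks; the dotted line marks equal density. All points lie below the line, and the 264 stretches with 6 or more MT peaks reach the highest MT densities.

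Of the 5 highest MT densities, 4 were in stretches with 7 or more MT peaks. The stretch at chromosome 2, 49308497 to 49330812, averaged 2.24 RPM per kb in MT and 7.47 in MB, and MT peaks covered 13959 bp of its 22.3 kb. It was followed by chromosome 13, 48627984 to 48640832, with 1.85 RPM per kb in MT and 8.40 in MB and 7 MT peaks, where MT libraries had 32.1, 7.36 and 31.9 RPM. The stretch on chromosome X named above had 1.46 RPM per kb in MT and 1.64 in MB, and chromosome 10, 117249045 to 117281902, had 1.41 in MT and 7.12 in MB with 26 MT peaks, and 60.5, 22.5 and 56.3 RPM in the MT libraries. The other, chromosome 1, 90156315 to 90174000, had 1 MT peak of 434 bp and 5 MB peaks, with 32.8, 29.5 and 35.5 RPM in MT and 70.8, 85.4 and 88.3 RPM in MB. MT replicate 2 was the lowest MT library in all 5, and closest to the other MT libraries in this one.

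Myoblasts had more H2Bub in the stretches with an MT peak than in those without. MT peaks were listed for the MT group, so the MB libraries were not what split the stretches, but the groups share position effects: local peak-free density in MB and MT had a Pearson r of 0.602 across the 2418. Matched within length bins of 2 kb, density in stretches with an MT peak was 1.25 times that in stretches without in each of the 3 MB libraries (log2 ratio 0.32 ± 0.0017, SD, n = 3; exact sign-flip permutation test, two-sided, p = 0.25, the smallest that 3 libraries allow). The direction was the same in 3 of 3 libraries, but the design cannot reach 0.05. The same ratio in MT, which the choice fixes in part, was 1.302, 1.09 and 1.29.

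The MT peaks also marked the denser places inside a stretch in myoblasts. In MB libraries, the parts of MB peaks under an MT peak had 5.54, 6.21 and 4.89 RPM per kb, against 3.47, 3.88 and 3.15 RPM per kb in the rest of the MB peaks of the same stretches. The ratio was 1.58 ± 0.0265 (SD, n = 3; log2 ratio 0.66; exact sign-flip permutation test, two-sided, p = 0.25, the smallest possible), higher under MT peaks in 3 of 3 libraries. In MT libraries, which chose the peaks, the same places had 2.10, 1.102 and 2.07 RPM per kb and the rest 0.892, 0.6165 and 0.866. Density under the retained peaks was thus 1.76 ± 0.569 RPM per kb in MT and 5.55 ± 0.66 in MB (SD, n = 3 each). Input libraries were not analysed here, so these ratios are not corrected for them. The rest also includes the MB peaks without an MT peak, which were narrower (median 386 bp, against 888 bp with one). The parts compared were not matched for peak width, and its part in the ratio was not tested.

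As single features, most MT peaks in the stretches that had enough reads to be tested were called lower in MT. Of the 6658, 2903 had enough reads, and 2742 of these were called lower and 0 higher (limma voom over all MT peaks), beside 91.8% lower and 0.163% higher among all 6765 MT peaks tested. A peak could pass the floor through its MB reads alone, so these counts support nothing. Without the floor, 3462 of the 6658 were called lower and 5 higher, beside 7672 lower and 4714 higher among all 25743 MT peaks. The median log2 fold change was -1.93 over the 2903 and -1.29 over the 6658 without the floor. With 1 library left out, 2376 to 2901 were called lower and 334 to 1677 of those tested were not called, the most without MT replicate 1 and next without MT replicate 2 (1435).

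Profiles were centred on MT peaks, so a narrow excess at the centre in MT is fixed by that choice, and the MT and MB shapes are given side by side as a description. In 100 bp steps, density at the centre was 2.08, 2.19 and 2.19 times that of the flanks, 1 to 3 kb away, in MT libraries, and 1.49, 1.52 and 1.51 times in MB libraries. Density stayed above the midpoint between centre and flank over 200 bp in each MT library and 400 bp in each MB library. The flanks had 0.968, 0.524 and 0.928 RPM per kb in MT and 3.29, 3.64 and 2.92 RPM per kb in MB. MT replicate 2 had the lowest flanks and centre, while its ratio of centre to flank was as high as in MT replicate 3.

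**Figure D4:**
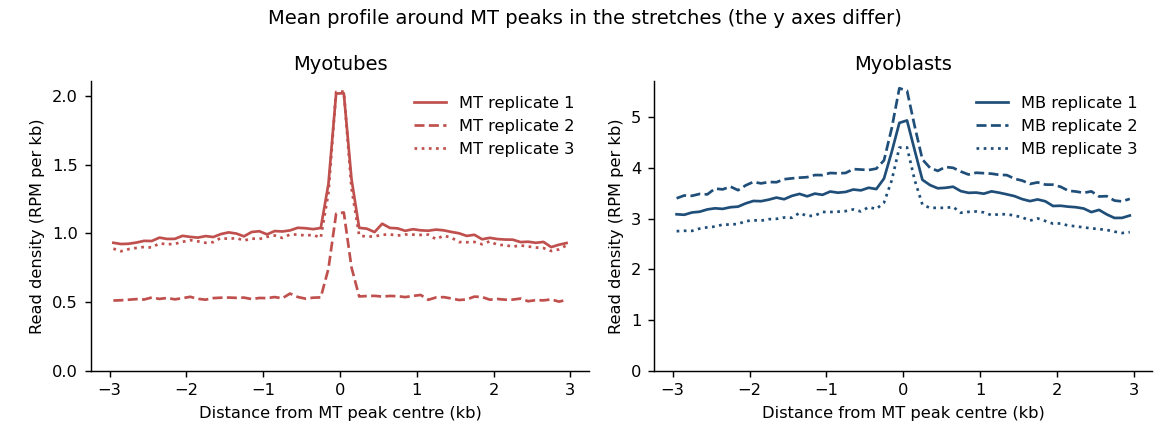
Mean read density (y axis, RPM per kb, with a different scale in each panel) by distance from the centre of the 6658 MT peaks in the stretches (x axis, kb), with 1 line per library, MT left and MB right. The centre reaches 2.02, 1.15 and 2.03 RPM per kb in MT replicates 1 to 3 and 4.91, 5.55 and 4.404 RPM per kb in MB replicates 1 to 3.

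Outside the MT peaks, density stayed above that of the surroundings in both groups, by less in MT. The stretches were built from MB peaks, and the surroundings compared hold no peaks. The excess in MB, and its larger size there than in MT, are thus fixed in part by the choice. With MT peaks and 500 bp on either side removed, density over local peak-free sequence was 1.50, 1.12 and 1.42 in MT libraries, against 6.65, 7.34 and 5.30 in MB libraries. The means were 1.35 ± 0.197 in MT and 6.43 ± 1.04 in MB (SD, n = 3 each). Stretches without an MT peak had 1.25 ± 0.0994 in MT and 5.29 ± 0.755 in MB. Stretches with an MT peak thus exceeded those without by 1.13 and 1.11 times in MT replicates 1 and 3, were at 0.986 times in replicate 2, and exceeded them by 1.18 to 1.24 times in the MB libraries. With MT peaks included, density in the outer 2 kb of a stretch was also set against that found 3 to 5 kb inside. The ratio was 1.03 ± 0.0117 in MT and 0.829 ± 0.0115 in MB (SD, n = 3 each).

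In myoblasts the end nearer the MT peak was the denser of the ends. In the 1101 stretches with 1 MT peak that lay wholly inside, the 2 kb at the nearer end had 2.00, 2.24 and 1.91 RPM per kb in MB libraries and the farther end 1.71, 1.92 and 1.66. The ratio was 1.16 ± 0.0104 (SD, n = 3; log2 ratio 0.21; exact sign-flip permutation test, two-sided, p = 0.25, the smallest possible), with the same direction in 3 of 3 libraries. When the MT peak itself lay outside the outer 2 kb, in 833 stretches, the ratio was 1.12 ± 0.00627.

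The share of stretches with an MT peak differed between chromosomes in steps. On chromosomes 10 and 15, 187 of 256 (73.0%) and 166 of 221 (75.1%) had an MT peak. On chromosomes 7, 9 and X the shares were 30.6%, 30.9% and 27.1%, and on the other 15 chromosomes 46.3% to 55.5%. On these 5 chromosomes, read density in peak-free sequence was high where the share was high and low where it was low, apart from MB on chromosome 9: over the genome mean it was 1.18 ± 0.0119 in MT and 1.09 ± 0.0184 in MB on chromosome 10, and 1.295 ± 0.00893 in MT and 1.22 ± 0.0204 in MB on chromosome 15. On chromosome 7 it was 0.775 ± 0.0209 in MT and 0.823 ± 0.0368 in MB, and on chromosome X 0.824 ± 0.0362 in MT and 0.772 ± 0.0564 in MB. Chromosome 9 had 0.889 ± 0.0135 in MT and 0.999 ± 0.0223 in MB (SD, n = 3 each). Other chromosomes departed from this order: chromosome 11 had 1.11 in MT and 1.16 in MB with a share of 52.1%, chromosome 19 had 1.08 in MT and 1.11 in MB with 46.3%, and chromosome 18 had 0.918 in MT and 0.99 in MB with 55.2%. The part of this density in the shares was not tested.

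Across the 20 chromosomes the MT peak-free density and the share had a Pearson r of 0.874 (Spearman 0.555). It was 0.768 without chromosomes 10 and 15, and 0.853 without X. Without chromosomes 7, 9, 10, 15 and X, r over the other 15 was -0.174. The chromosomes left out there had the highest and lowest shares, so the other 15 span a narrow range and this r decides little. The median density of these stretches over their local peak-free sequence was 1.42 in MT and 6.46 in MB on chromosome 10, 1.305 in MT and 5.23 in MB on chromosome 15, 1.51 in MT and 8.34 in MB on chromosome 7, 1.48 in MT and 7.97 in MB on chromosome 9, and 1.65 in MT and 5.24 in MB on chromosome X. The median log2 fold change was lowest on chromosome 9 (-2.33) and highest on chromosomes X (-1.496) and 15 (-1.51).

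**Figure D5:**
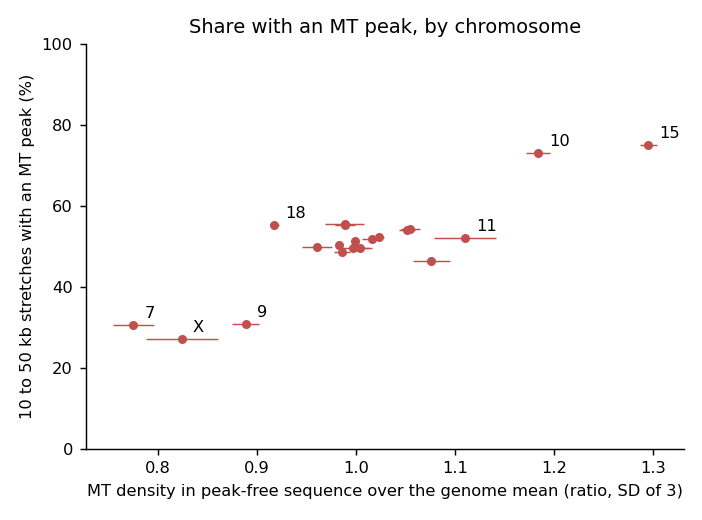
Share of 10 to 50 kb stretches with an MT peak (y axis, percent) against MT read density in peak-free sequence over the genome mean (x axis, mean and SD of 3 MT libraries), with 1 point per chromosome and 7 of them labelled. Chromosomes 10 and 15 lie at 73.0% and 75.1%, chromosomes 7, 9 and X between 27.1% and 30.9%, and the other 15 between 46.3% and 55.5%.

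A ratio meant to capture regular spacing of reads was lower in the stretches than in peak-free sequence. Micrococcal nuclease cuts between nucleosomes, so in an ordered array same-strand reads recur at multiples of the nucleosome repeat. Regularity was taken as the number of same-strand read pairs 370 bp apart, the second neighbour, over the mean number at distances 85 bp shorter and 95 bp longer (each 20 bp on either side), a measure chosen after the data were seen. It was 1.007 ± 0.0042 in the stretches in MT and 0.998 ± 0.000905 in MB. In 155519 peak-free windows of 10 kb it was 1.03 ± 0.00215 in MT and 1.02 ± 0.00457 in MB (SD, n = 3 each). The stretches were lower in 6 of 6 libraries (mean difference -0.025 ± 0.0043, SD, n = 6). The measure was chosen after the stretches had shown no repeat beyond the nearest neighbour, so this difference is a description with no test. Stretches without an MT peak had 1.014 ± 0.00132 in MT and 0.999 ± 0.0031 in MB. Their difference from the stretches with an MT peak was not tested. The part that clustering of reads in MB peaks has in this ratio was not tested either.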

How the data were processed

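Chromatin immunoprecipitation and sequencing of H2Bub was analysed in 3 MT and 3 MB libraries on chromosomes 1 to 19 and X. The authors deposited, per library, read positions with their chromosome and strand, and per group a peak list without scores, on build mm9 per the submitters' processing notes. Of the aligner, read length, filters, peak caller, threshold and pooling, none is stated in the sources used here. The read files held 0 repeated positions. Plus-strand reads preceded minus-strand reads by 97 to 106 bp (median 102 bp).

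No count table was used: reads were counted here per stretch and scaled by total reads. The alternative background scaling used reads outside both peak lists. A floor of 10 reads, scaled to the median library, had to be met in 3 libraries (2 with a library left out), and stretches above it were fitted with limma 3.58.1 (voom, two-sided, Benjamini-Hochberg over all stretches) in R 4.3.3, after a test on simulated data. Other count models were not run. Counting and ratios were done in Python 3.11.15 with SciPy 1.17.1, NumPy 2.4.6 and pandas 2.3.3, and figures in matplotlib 3.10.9. Local background was peak-free sequence, in bins of 1 kb, within 250 kb. A planned estimate of nucleosome spacing could not be read in the stretches, which showed no maxima beyond the first, and a regularity ratio replaced it. Members, lists and tests were chosen with earlier results of these data known. Named stretches were the 5 lowest and 5 highest by fold change, the 5 with most MT peaks, the 5 with the highest MT density, and those nearest each length limit. The labels do not say that libraries came from separate cultures, so p-values cover only the spread between these libraries. Alternatives covered scaling, each library left out, a replicate block, no floor, limma-trend, thinning, other gaps and overlaps, wide MT peaks and shifted positions. Genes and sequences were not used here.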

Additional observations from a re-analysis of the deposited data

How the results depend on the processing

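No alternative called a stretch higher in MT. Among the named stretches and the results below, the sign turned once, to 0.1564 at chromosome X from 166391723 without MT replicate 2, in a range of -0.5607 to 0.1564 with 1 library left out. Alternatives planned for nucleosome spacing were not run. With 1 library left out, 12214 to 12825 stretches were called, the median log2 fold change of the 2418 was -1.85 to -1.62, and the difference in read share -11.9 to -10.3 points. In the same fits, called MT peaks numbered 5350 to 6478, and the difference in density outside MT peaks over local background was -5.65 to -4.63. In the MB libraries, with 1 left out, the log2 ratio with over without an MT peak was 0.319 to 0.321, under MT peaks over the rest 0.655 to 0.677, and at the nearer over the farther end 0.209 to 0.221. Joining across 5 kb moved the difference in read share to -9.51 points and the share of MT peaks in the outer 10% to 21.7%, and the wider 50% of MT peaks moved the read share to -8.29 points; both change the number of stretches. Centres within 2 kb of an end were 17.1%, a different measure of position by construction. Without the floor, 25743 MT peaks entered the test and 12386 were called, 7672 lower and 4714 higher. Without MT replicate 2, 42 MT peaks were called higher, against 11 with all libraries, and 26 of the 2418 stretches were not called, against 4 with all libraries; without MB replicates 2 and 3 it was 21 and 14. Regularity differed by -0.026 to -0.0234 with 1 library left out. The replicate block called 12737 stretches and 5901 MT peaks with a median of -1.79 for the 2418, within 1.5 times of the counts without it. The block ended the calls at chromosome 10 from 18720912 (-0.4205) and chromosome 17 from 30585581 (-0.4346), and called those at chromosome 1 from 91422706 (-0.4967) and chromosome 19 from 53757198 (-0.4954). Deviations of same-numbered libraries correlated at 0.092, -0.0224 and 0.207 and not all were above those of differently numbered ones, so pairing by number was not assumed. Depth limited single MT peaks, of which 2903 of 6658 passed the floor.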
